A study of Mus musculus with 2 samples.

Results

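The cell division programme was read through 39 genes in J-RGCs, retinal ganglion cells sorted from mouse retina at postnatal day 6. They were picked by symbol for their role in the cell cycle, with earlier results of these data known. All 39 were found among the 24015 gene symbols of the count tables. They comprised 4 cell cycle inhibitors, 4 G1 cyclins and kinases, 5 genes of the G1/S step, 12 S-phase genes and 14 mitotic genes. There was 1 group, with library A and library B each made from a pool of 5 to 6 animals of a separate litter. A transgenic line marked J-RGCs with green fluorescent protein, and labelled cells were collected by magnetic beads followed by flow cytometry. Mouse strain, sex and the line's promoter were not given in the sources used here, and no group of dividing cells or of another age stands beside these libraries.

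Ganglion cells of the mouse retina leave the cell cycle mostly before birth and do not divide again. In dividing cells, D-type cyclins with Cdk4 or Cdk6 inactivate the retinoblastoma protein and release E2F factors, which switch on the genes of DNA replication. Mitotic genes follow under the B-MYB and FOXM1 factors, and in resting cells the DREAM complex represses them. Inhibitors of the Cip/Kip family (Cdkn1a, Cdkn1b) and of the INK4 family (Cdkn2c) block the kinases and hold cells out of the cycle.

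Reads assigned to genes numbered 7916204 in library A and 13744313 in library B, and levels are counts per 1000000 of these totals (CPM). At 3 counts, the limit for a gene with no read was 0.379 CPM in library A and 0.218 CPM in library B. This covers counting error only. Detected here means 1 CPM or more in each of the libraries. All 12 ganglion cell markers were detected, summing to 12388 CPM in A and 17355 CPM in B. The biological coefficient of variation between the libraries was 0.507, by edgeR over 11272 genes.

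Letters of the elements through which S-phase and mitotic genes are controlled were read in the promoters that the RefSeq table gives for 32 of the 39 genes, on GRCm38.p6. Aurkb, Ccna2, Ccnd1, Ccnd2, Ccne2, Mcm4 and Rb1 had no entry there. Each window ran from 250 bases before to 50 after a gene's start, and both strands were searched. The E2F element was spelled TTTCCCGC, TTTCGCGC, TTTGGCGC or TTTGCCGC, and the cell cycle homology region (CHR) of mitotic genes TTTGAA or TTCGAA, of which TTCGAA is a palindrome that matches both strands at 1 place. E2F letters were found for 6 of 11 S-phase genes, 1 of 12 mitotic genes and 0 of 3 inhibitors, beside 2.61% of 27025 genes in the table. CHR letters were found for 9 of 12 mitotic genes, 2 of 11 S-phase genes and 0 of 3 inhibitors, beside 21.7% of all genes. The CCAAT letters common in mitotic promoters were found for 11 of 12 mitotic genes, 8 of 11 S-phase genes and 2 of 3 inhibitors, beside 41.1% of all genes. A match is a run of letters, not a shown binding site.

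The 180 bases before the start are printed for 8 genes, 4 of S phase and 4 of mitosis, 5′ to 3′ on the gene's strand. They were picked with their levels known, as genes that share E2F or CHR letters but differ in level or in their call between the libraries. Capitals mark E2F or CHR letters on either strand, and overlapping matches run together. For Mcm7, with several starts in the table, the start listed first is shown. The last bases of the window after the start were not found in any GENCODE transcript of Mcm6 or Mcm5. Their starts and motif positions are therefore less certain, as are those of Aurka, which is counted but not printed.
Mcm6 (chr1:128359706-128359885, minus strand): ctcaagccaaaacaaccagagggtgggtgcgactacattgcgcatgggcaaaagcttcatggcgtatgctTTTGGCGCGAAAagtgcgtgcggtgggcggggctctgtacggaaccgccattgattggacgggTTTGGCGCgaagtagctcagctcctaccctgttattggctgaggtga
Mcm5 (chr8:75109329-75109508, plus strand): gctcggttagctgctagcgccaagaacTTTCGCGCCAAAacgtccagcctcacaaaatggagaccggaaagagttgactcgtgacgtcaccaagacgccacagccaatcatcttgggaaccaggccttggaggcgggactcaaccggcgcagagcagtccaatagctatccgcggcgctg
Mcm7 (chr5:138171884-138172063, minus strand): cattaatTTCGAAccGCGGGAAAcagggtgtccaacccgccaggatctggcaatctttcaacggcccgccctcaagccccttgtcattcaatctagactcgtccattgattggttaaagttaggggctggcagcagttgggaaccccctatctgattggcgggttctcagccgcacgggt
Cdc6 (chr11:98907971-98908150, plus strand): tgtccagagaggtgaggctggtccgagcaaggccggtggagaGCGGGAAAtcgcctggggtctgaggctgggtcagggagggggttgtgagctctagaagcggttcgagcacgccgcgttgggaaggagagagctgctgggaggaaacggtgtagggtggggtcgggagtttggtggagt
Mki67 (chr7:135716380-135716559, minus strand): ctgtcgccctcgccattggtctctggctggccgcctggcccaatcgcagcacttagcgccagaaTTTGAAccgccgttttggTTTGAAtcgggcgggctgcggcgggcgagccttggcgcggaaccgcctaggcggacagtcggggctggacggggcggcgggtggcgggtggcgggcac
Top2a (chr11:99024190-99024369, minus strand): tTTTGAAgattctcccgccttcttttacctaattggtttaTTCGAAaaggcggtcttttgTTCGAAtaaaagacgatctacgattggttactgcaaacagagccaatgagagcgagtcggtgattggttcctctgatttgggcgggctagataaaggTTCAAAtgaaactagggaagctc
Cdk1 (chr10:69352913-69353092, minus strand): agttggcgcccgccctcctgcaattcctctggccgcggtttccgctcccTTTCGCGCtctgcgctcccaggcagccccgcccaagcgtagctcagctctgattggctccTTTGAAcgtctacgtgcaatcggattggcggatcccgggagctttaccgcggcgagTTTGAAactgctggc
Cdc20 (chr4:118437344-118437523, minus strand): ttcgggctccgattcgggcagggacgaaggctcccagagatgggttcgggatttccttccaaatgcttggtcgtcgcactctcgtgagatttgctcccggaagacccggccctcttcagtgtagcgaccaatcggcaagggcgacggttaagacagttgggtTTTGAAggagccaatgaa

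The 2 CHR copies of Mki67, the gene of the proliferation antigen Ki-67, stood before a gene at 116 CPM in A and 41.8 CPM in B. Those of Cdk1, the mitotic kinase, stood before a gene at 0.632 CPM in A and 0.291 CPM in B. Mcm6 and Mcm5, both helicase subunits with overlapping E2F letters, were called in opposite directions between the libraries, as given with the S-phase genes.

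**Figure D1:**
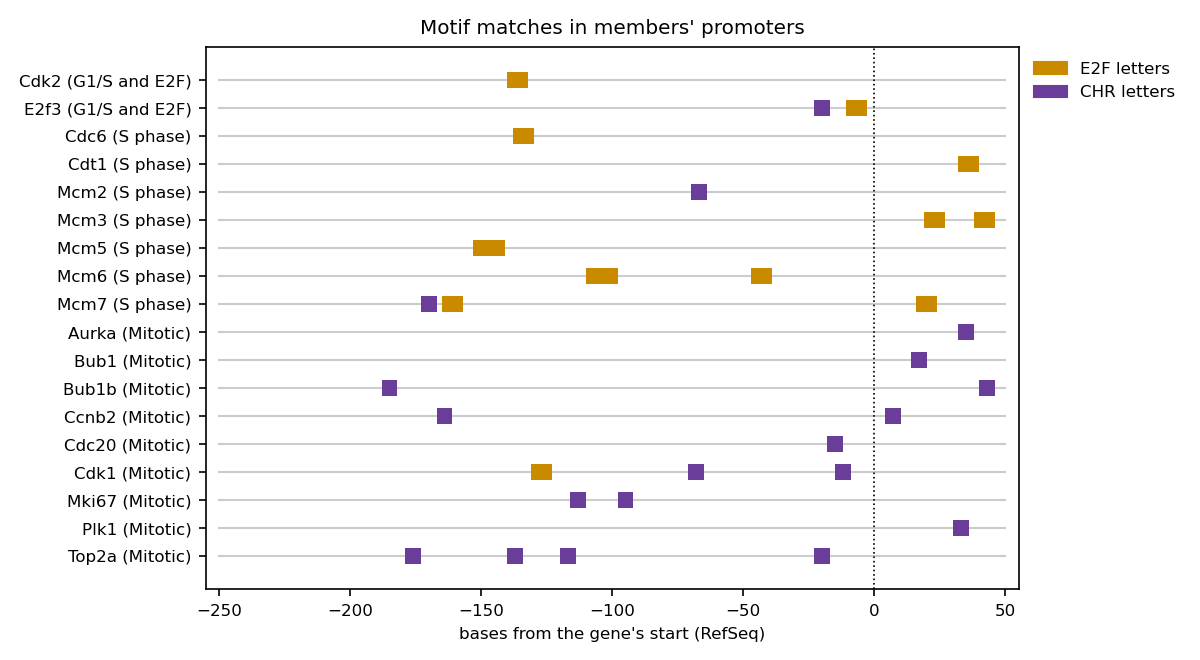
Positions of E2F letters (orange) and CHR letters (purple) in bases from the RefSeq start, with 1 line for each of the 18 genes with a match, among 32 genes with a promoter. E2F letters were mostly in S-phase promoters and CHR letters mostly in mitotic ones.

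Of the 39 genes 27 were detected, or 69.2%, beside 46.8% of all 24015 symbols and 66.2% of the 16969 genes with a count in either library. No member had 0 counts in both libraries. In bulk samples fewer cells of a type and less RNA per cell cannot be told apart. Together the 39 took 951 CPM in A and 615 CPM in B, and without Mcm10 they took 633 CPM in A and 615 CPM in B. Their median level in CPM was 4.55 in A and 3.49 in B, against 5.81 in A and 8.66 in B over those 16969 genes. Only 7 stood above 10 CPM in both libraries, namely Rb1, Cdkn1a, E2f3, Mki67, Top2a, Pcna and Ccna2.

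**Figure D2:**
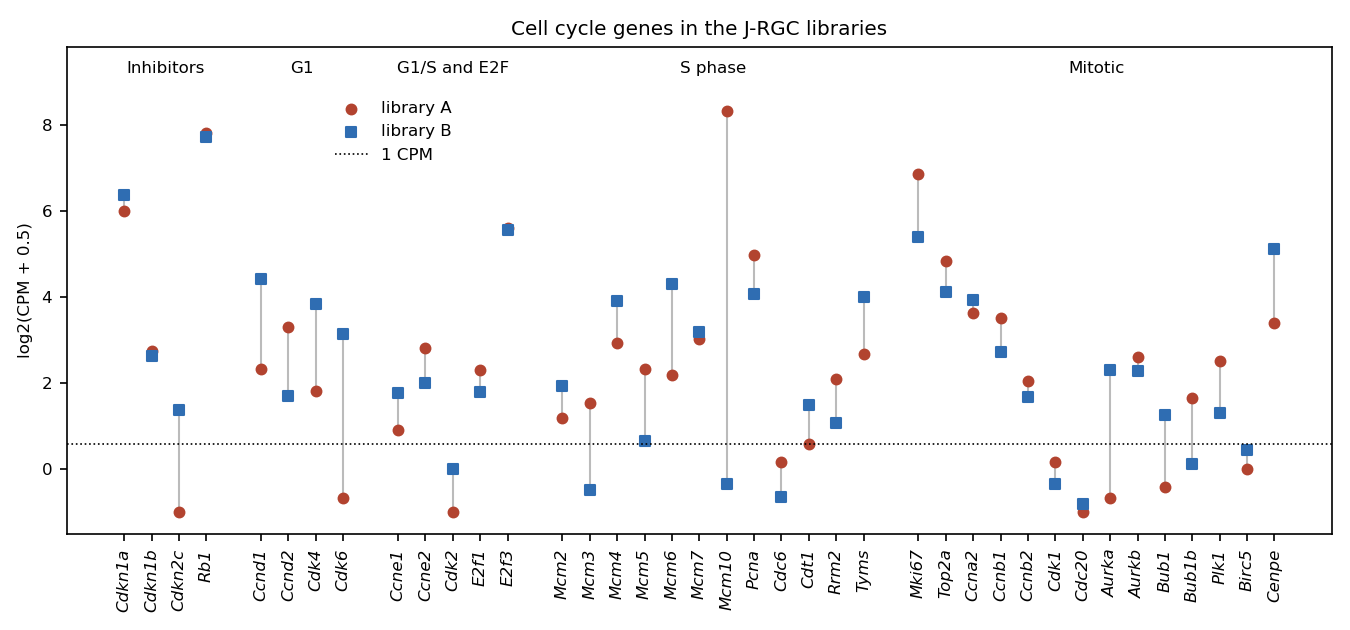
Level of each of the 39 genes as log2(CPM + 0.5), by role, with circles for library A and squares for library B and a line joining them. Rb1, Cdkn1a and E2f3 lay close together and high in both libraries, whereas Mcm10 was at 318 CPM in A and 0.291 CPM in B.

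The inhibitors were split between 2 high and 2 low genes. Rb1, the retinoblastoma protein that binds E2F factors, stood at 221 CPM in A and 209.6 CPM in B, the highest member in B. Cdkn1a (p21), a kinase inhibitor induced by p53, stood at 63.2 CPM in A and 81.7 CPM in B. Each of these 2 genes lay within 2-fold between the libraries.

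Cdkn1b (p27), a Cip/Kip inhibitor known for its part in cell cycle exit in the retina, was low in both, at 6.19 CPM in A and 5.68 CPM in B, from 49 and 78 counts. Cdkn2c (p18), of the INK4 family, had 0 counts in A and 29 in B, or 2.11 CPM. The exact counting interval of its B over A ratio starts at 4.25. Per kb of summed exon length, Cdkn1b was 0.0489-fold of Cdkn1a, with a 95% interval of 0.0175 to 0.137. It was 0.0282-fold of Rb1, with an interval of 0.00974 to 0.0814. Both orders held in each library alone. Cdkn1b exceeded Cdkn2c 3.32-fold (interval 1.03 to 10.7), but in B alone the ratio was 1.59 and its interval of 0.328 to 7.68 held 1. The intervals carry counting error and edgeR's trended dispersion over both libraries.

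Of the 4 genes that start the cycle in G1, none lay within 2-fold between the libraries, with Ccnd2 higher in A and the others higher in B. Ccnd1, the main D-type cyclin of retinal progenitors, stood at 4.55 CPM in A and 20.95 CPM in B. Ccnd2, another D-type cyclin, was the other way round, with 9.35 CPM in A and 2.76 CPM in B. Cdk4, a partner of D cyclins, had 3.03 CPM in A and 13.8 CPM in B. Cdk6, the related kinase, had 1 count in A (0.126 CPM) and 114 in B (8.29 CPM), a B over A ratio of 65.7 with an exact counting interval of 11.6 to 2616.

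The order of the D cyclins rested on library B. Ccnd1 over Ccnd2 was 3.78-fold per kb (95% interval 1.20 to 11.8) over both, but 0.873-fold in A alone, where the interval held 1, and 13.6-fold in B alone (2.68 to 68.9). Without length correction the ratio was 2.11, with an interval of 0.671 to 6.60. Cdk4 exceeded Cdk6 11.2-fold per kb (interval 3.48 to 36.3), but by CPM without length correction the ratio had an interval of 0.620 to 6.46. From the single Cdk6 count in A, the ratio per kb was 135 (10.3 to 1763) there, and in B alone it was 9.36 (1.83 to 47.9). Ccnd1 shares 818 of 3740 exon bases with a gene on the opposite strand and Cdk4 641 of 2053 with Tspan31, on GENCODE's annotation of another build, and reads there cannot be told apart if strand was not used. Cdkn1a, Rb1, Ccnd2, Cdk6, Ccne2, Mcm7, Cdc20 and Plk1 also have exons that overlap a gene on the opposite strand.

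At the G1/S step the E2F factors were far apart. E2f3, an activating E2F, stood at 48.4 CPM in A and 46.5 CPM in B, with a ratio of A over B of 1.04. E2f1, the factor most tied to S-phase entry, stood at 4.42 CPM in A and 2.98 CPM in B. E2f3 exceeded E2f1 7.54-fold per kb (95% interval 2.73 to 20.8), and the interval excluded 1 in each library alone, where the ratio was 6.44 in A and 9.17 in B. The E-type cyclins were low, with Ccne1 at 1.39 CPM in A and 2.91 CPM in B and Ccne2 at 6.57 CPM in A and 3.49 CPM in B. Their order was not settled (0.684-fold, interval 0.217 to 2.15). Cdk2, their kinase, had 0 counts in A and 7 in B, or 0.509 CPM, and Cdk4 exceeded it 38.9-fold per kb (interval 9.81 to 154).

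Of the 12 S-phase genes 9 were detected, and levels ran from 0.632 to 318 CPM in A and from 0.146 to 19.1 CPM in B. Their median level in CPM was 4.29 in A and 2.84 in B. Pcna, the sliding clamp of DNA polymerases, stood at 31.1 CPM in A and 16.4 CPM in B. Per kb it was the highest of those 9 in both libraries, at 20.5 CPM in A and 10.8 CPM in B. It also serves DNA repair, and it exceeded Mcm2 20.6-fold per kb (95% interval 7.27 to 58.3), in each library alone too. RefSeq names 2 pseudogenes of Pcna, and 1 of Tyms, and reads shared with such copies make these levels uncertain.

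The replicative helicase is a ring of 6 subunits, Mcm2 to Mcm7, held in equal numbers. Their transcripts were uneven, from 0.525 to 2.56 CPM per kb in A and from 0.0720 to 4.37 CPM per kb in B. In A the highest per kb was Mcm7, at 2.56, and in B Mcm6, at 4.37. Mcm6 had 4.04 CPM in A and 19.1 CPM in B, and Mcm4 7.07 CPM in A and 14.5 CPM in B. Mcm5 had 4.55 CPM in A and 1.09 CPM in B, and Mcm3 2.40 CPM in A and 0.218 CPM, from 3 counts, in B. The other two were not called between the libraries, with Mcm2 at 1.77 CPM in A and 3.35 CPM in B and Mcm7 at 7.58 CPM in A and 8.66 CPM in B. Mcm7 exceeded Mcm2 3.61-fold per kb (95% interval 1.14 to 11.4), while in A alone it was 4.88-fold (0.919 to 25.9) and in B alone 2.94-fold (0.594 to 14.6), where both intervals held 1.

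The factors that load the helicase rested on few counts. Cdc6 had 5 counts in A and 2 in B, or 0.632 and 0.146 CPM, and Cdt1 had 8 and 32, or 1.01 CPM in A and 2.33 CPM in B. Among the genes of nucleotide supply, Rrm2, the S-phase subunit of ribonucleotide reductase, stood at 3.79 CPM in A and 1.60 CPM in B. Tyms, thymidylate synthase, stood at 5.94 CPM in A and 15.4 CPM in B.

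Mcm10, which joins the helicase to DNA polymerase alpha, stood apart from all other members. It had 2515 counts in A and 4 in B, or 318 and 0.291 CPM, an A over B ratio of 1092 with an exact counting interval of 425.8 to 4010. In A it was the highest of the 39 genes and ranked 560 among all symbols, and in B it ranked 14609. Of the genes tested, 0.0142% were as far apart between the libraries. Of the coding genes on either side, Optn stood at 110.2 CPM in A and 53.3 CPM in B. Ucma, at 0 CPM in A and 0.0728 CPM in B, had too few reads to compare. Next past Optn, Ccdc3 differed the other way, with 0.126 CPM in A and 8.15 CPM in B. Past Ucma, Phyh had 21.7 CPM in A and 50.6 CPM in B. A summed S-phase level rests on this 1 gene in A, with 388 CPM in A and 83.1 CPM in B over all 12, against 69.9 CPM in A and 82.8 CPM in B without it.

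Mitotic genes ranged from some of the highest members to the lowest. Of 14, 8 were detected, with a median CPM of 4.42 in A and 3.53 in B. Per kb, Mki67 led in A at 11.5 CPM and stood at 4.15 CPM in B, beside 1.26 CPM in A and 4.29 CPM in B for Cenpe. Top2a, the topoisomerase of chromosome segregation, had 27.9 CPM in A and 16.9 CPM in B. Per kb the 2 were not separated, with Mki67 over Top2a at 1.82-fold (95% interval 0.739 to 4.49), while in CPM the ratio was 3.51 (1.42 to 8.66). Cenpe, a kinetochore motor with a long transcript, stood at 9.98 CPM in A and 33.9 CPM in B.

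The mitotic cyclins were detected and their kinase was not. Ccna2 stood at 11.9 CPM in A and 14.6 CPM in B, Ccnb1 at 10.9 CPM in A and 6.11 CPM in B and Ccnb2 at 3.66 CPM in A and 2.69 CPM in B. Cdk1 had 5 counts in A and 4 in B, with exact Poisson intervals of 0.205 to 1.47 CPM in A and 0.0793 to 0.745 CPM in B. Cdk4 exceeded Cdk1 39.7-fold per kb (95% interval 11.4 to 139), a ratio of 10.4 in A by itself and 103 in B by itself. Cdc20, the activator of the anaphase-promoting complex, had 0 counts in A and 1 in B, the lowest of all members. Birc5 (survivin), of the chromosomal passenger complex, had 4 counts in A and 12 in B, or 0.505 and 0.873 CPM. RefSeq names a pseudogene each for Ccnb1, Ccnb2 and Aurkb, whose levels are uncertain for that reason, and Ccna2 shares 378 of 3627 exon bases with Exosc9.

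Among the members, the kinases and checkpoint genes of mitosis stood at 5.56 CPM or less in both libraries. Aurkb stood at 5.56 CPM in A and 4.37 CPM in B, while Aurka, the spindle pole kinase, had 1 count in A (0.126 CPM) and 61 in B (4.44 CPM), a B over A ratio of 35.1 with an exact counting interval of 6.07 to 1410. Plk1, which acts from mitotic entry to exit, had 5.18 CPM in A and 1.96 CPM in B. The spindle checkpoint kinases differed in opposite directions, with Bub1 at 0.253 CPM in A and 1.89 CPM in B and Bub1b at 2.65 CPM in A and 0.582 CPM in B.

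Set against each other within each library, the inhibitors had a higher median than both other classes, which rested on Rb1 and Cdkn1a. That median falls between Cdkn1a and Cdkn1b. Cdkn1b, at 1.36 CPM per kb in A and 1.25 in B, lay below the mitotic median in both libraries. So did Cdkn2c, at 0 CPM per kb in A and 0.786 in B. The median level of the 4 inhibitors was 12.3 CPM per kb in A and 15.7 in B, and that of the 12 S-phase genes 1.52 in A and 1.03 in B. The 14 mitotic genes had a median of 1.81 CPM per kb in A and 1.996 in B. Over all genes with a count and a length the median was 2.04 CPM per kb in A and 3.10 CPM per kb in B. On the log2(CPM + 0.5) scale the inhibitors' median lay above that of the mitotic genes by 2.09 in A and 2.52 in B, or 2.30 ± 0.304 (SD, n = 2 libraries). It lay above that of the S-phase genes by 2.11 in A and 2.77 in B, or 2.44 ± 0.470. On the scale of log2(CPM per kb + 0.5) these differences were 1.56 ± 0.0075 and 1.99 ± 0.377. The difference of S-phase from mitotic genes was -0.14 ± 0.166 in CPM, smaller than the spread, and -0.43 ± 0.385 per kb, slightly larger than it. In CPM it was 0.21 with means in place of medians. With Rb1 left out of the inhibitors, their differences were 0.55 from mitotic and 0.69 from S-phase genes. Without the 16 members whose exons overlap another gene or that have a named pseudogene, Rb1 and Cdkn1a among them, the differences were 0.089 from mitotic and -0.15 from S-phase genes. With 2 libraries, an exact two-sided test that flips the signs of these within-library differences cannot go below p = 0.5, and none was run.

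**Figure D3:**
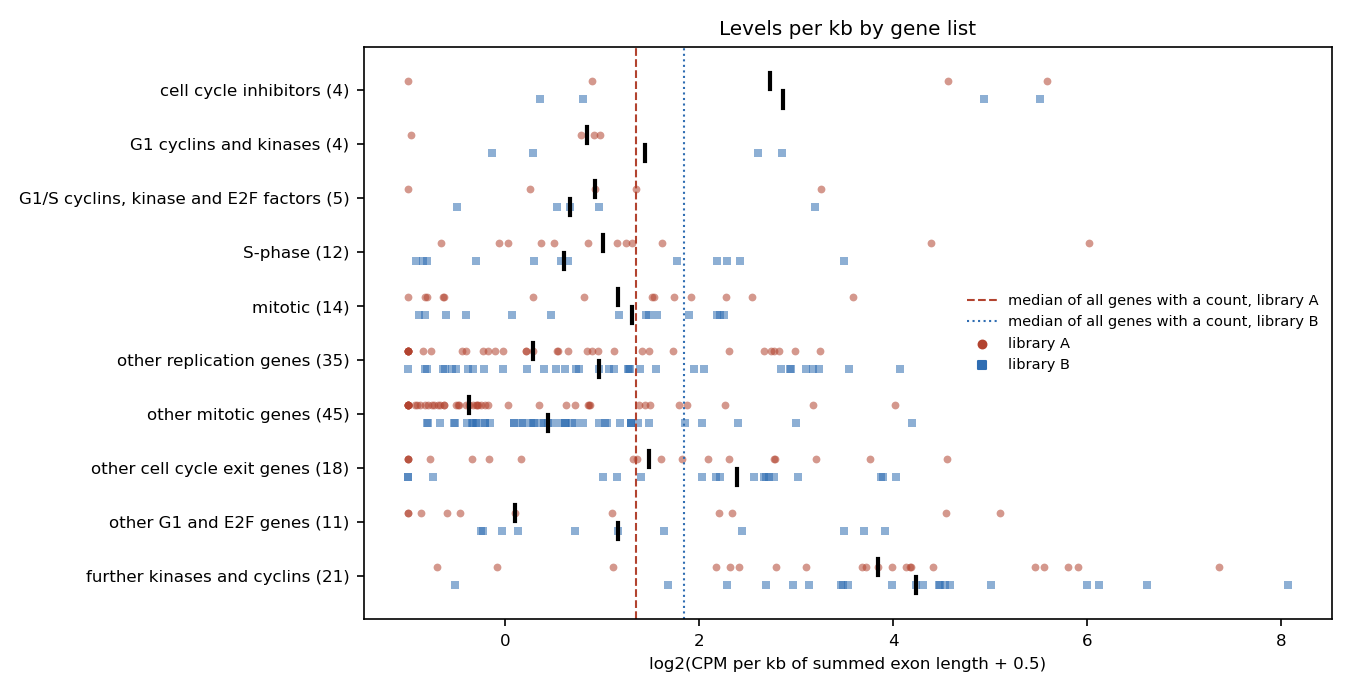
Each point is 1 gene's level as log2(CPM per kb of summed exon length + 0.5), circles for library A and squares for library B, with a black bar at each list's median and vertical lines at the median of all genes with a count. Medians of the S-phase and mitotic lists lay below those lines, and that of the further kinases and cyclins above them.

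Ratios of single members were compared in 15 pairs, of which 10 had an interval that excluded 1, also in 6 of the 8 with a value in A alone and in 8 of 10 in B alone. Cdkn1b was not separated from Ccnb1 (0.382-fold per kb, interval 0.117 to 1.24) or from Ccnd1 (0.382-fold, 0.122 to 1.20), nor Ccnb1 from Ccnb2 (1.64-fold, 0.518 to 5.21).

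**Figure D4:**
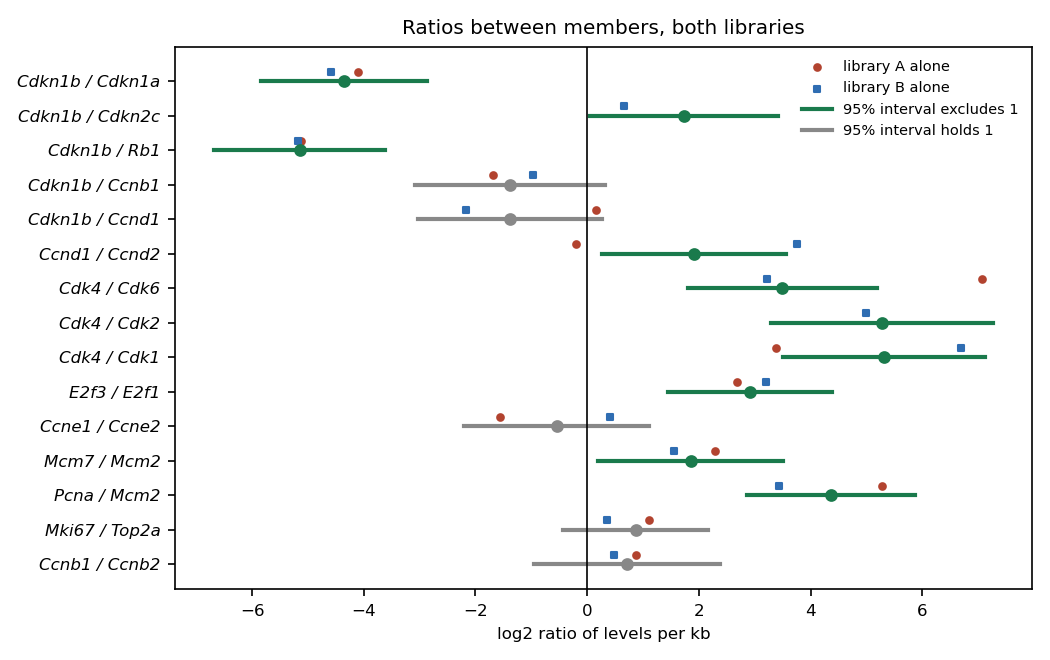
Ratio of 2 members' levels per kb on a log2 scale, with the 95% interval over both libraries as a bar and each library alone as a small point. Of 15 pairs the interval excluded 1 in 10, in green, and pairs with a library at 0 counts have 1 small point.

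Between the libraries 20 of the 35 members with at least 10 counts differed by at least 2-fold beyond counting noise, in an exact two-sided binomial test with Benjamini-Hochberg adjustment over 14107 genes. The same call was made for many genes of any kind. It compares these 2 libraries, not conditions. Of the members 8 were called higher in A, where 10.8% of all tested genes were, and 12 higher in B, where 33.4% were. Scaling by TMM moved all log2 ratios of A over B by 0.45 and brought the median of tested genes to -0.08, against -0.53 with gene totals. With it 13 members were called higher in A, beside 16.4% of all tested genes, and 8 higher in B, beside 22.3%. Within 2-fold lay 51.4% of the tested members and 57.0% of all tested genes.

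Members higher in A were Mcm10, Mcm3, Mcm5 and Rrm2 of S phase, Mki67, Plk1 and Bub1b of mitosis, and Ccnd2. Those higher in B were Ccnd1, Cdk4 and Cdk6 of G1, Ccne1, the S-phase genes Mcm4, Mcm6, Tyms and Cdt1, the mitotic genes Cenpe, Aurka and Bub1, and Cdkn2c. S-phase and mitotic genes were thus split between both directions, and of the 4 G1 genes 3 were higher in B. Mki67 was 2.77-fold higher in A (adjusted p = 8.21e-83) and Cenpe 3.40-fold higher in B (adjusted p = 2.23e-29), both by the exact binomial test with Benjamini-Hochberg adjustment. With TMM the calls of Ccne1, Mcm4, Cdt1 and Tyms ended, and Ccne2, E2f1, Pcna, Top2a and Ccnb1 were added as higher in A. The levels of the 39 genes in the 2 libraries had a Pearson's r of 0.606 and a Spearman's rho of 0.637 across genes, or 0.783 and 0.746 without Mcm10, beside 0.917 and 0.908 over all genes with a count. Genes are not independent replicates, and these values only describe the libraries.

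**Figure D5:**
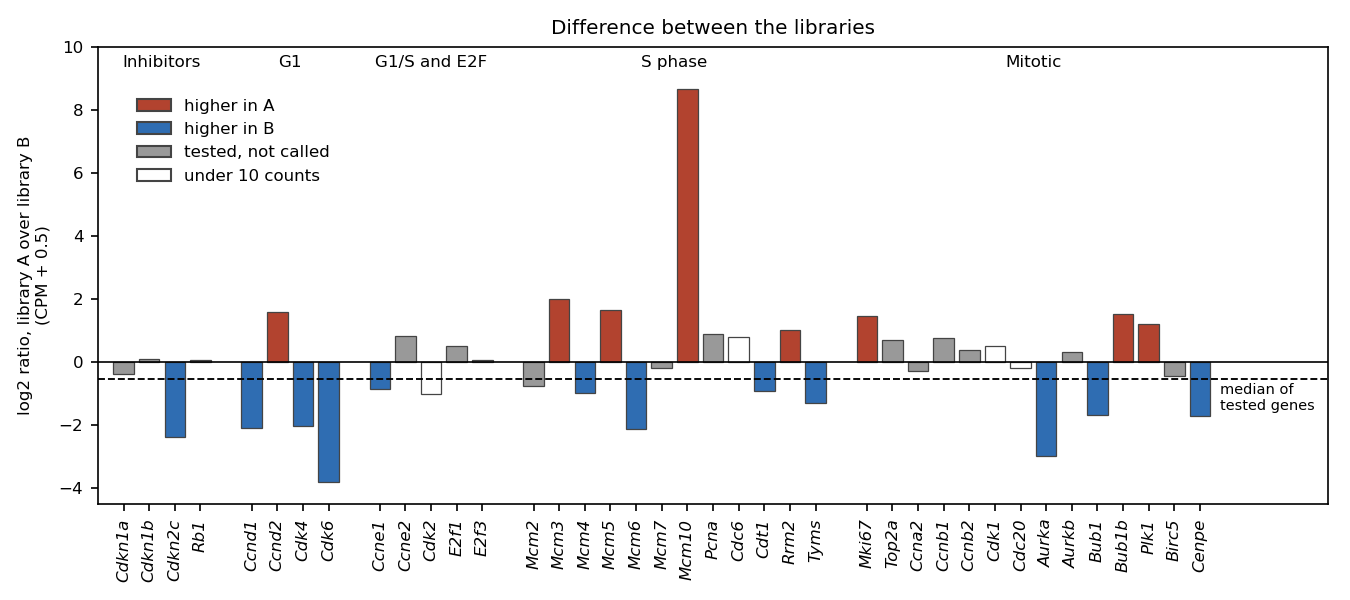
Log2 ratio of library A over library B for each member with 0.5 added to each CPM, coloured by the call, with white bars for the 4 genes under 10 counts and a dashed line at the median of tested genes, -0.53. Mcm10 was the highest bar at 8.65, and the inhibitors other than Cdkn2c lay closer to 0 than that line.

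Further genes of the same steps were also low. Of 35 other replication genes 23 were detected, with a median CPM per kb of 0.725 in A and 1.46 in B, and of 28 tested 1 (3.57%) was called higher in A and 10 (35.7%) higher in B, beside 10.8% and 33.4% of all tested genes. With TMM 3 were called higher in A and 7 higher in B, beside 16.4% and 22.3% of all tested genes. The highest in CPM, which is not corrected for length, were Lig1, the replicative and repair ligase, at 31.7 CPM in A and 31.3 CPM in B, Rrm1, the constant subunit of ribonucleotide reductase, at 25.3 CPM in A and 26.7 CPM in B, and Cdc7, the kinase that fires origins, at 18.9 CPM in A and 23.2 CPM in B. The 3 called genes with the largest change at a mean of at least 10 CPM were all higher in B. Orc6 had 9.85 CPM in A and 26.05 CPM in B, Prim1 7.07 CPM in A and 17.8 CPM in B and Pola1 5.05 CPM in A and 17.9 CPM in B. Uhrf1, which maintains DNA methylation at replication, had 0 counts in both.

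Of 45 other mitotic genes 22 were detected, with a median CPM per kb of 0.274 in A and 0.860 in B. Of 40 tested 3 (7.5%) were called higher in A and 19 (47.5%) higher in B, beside 10.8% and 33.4% of all tested genes. With TMM 5 (12.5%) were higher in A and 17 (42.5%) higher in B, beside 16.4% and 22.3% of all tested genes. The condensin subunit genes Smc4, at 67.96 CPM in A and 76.6 CPM in B, and Smc2, at 45.98 CPM in A and 40.6 CPM in B, were the highest in CPM, followed by the checkpoint gene Mad2l1 at 16.9 CPM in A and 6.62 CPM in B. At the floor of 3 counts or below were 19 of the 45 in A and 1 in B.

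Other genes of cell cycle exit had a median CPM per kb of 2.31 in A and 4.78 in B over 18 genes. Of these 12 were detected. Of 15 tested 0 were called higher in A and 6 (40.0%) higher in B, beside 10.8% and 33.4% of all tested genes. With TMM 1 of the 15 was higher in A and 3 higher in B, beside 16.4% and 22.3% of all tested genes. Hbp1, a transcriptional repressor of cycle genes, stood at 67.8 CPM in A and 82.1 CPM in B. The pocket protein gene Rbl2 (p130), a core of the DREAM complex, stood at 31.3 CPM in A and 70.6 CPM in B, Tob1, an antiproliferative factor, at 52.6 CPM in A and 32.3 CPM in B, and Fzr1, the Cdh1 activator of the anaphase-promoting complex, at 6.32 CPM in A and 16.6 CPM in B. The INK4 genes Cdkn2a and Cdkn2b had 0 counts in both libraries, and Cdkn2d had 1 count in A and 2 in B. The further inhibitor gene Cdkn1c had 0 counts in A and 96 in B, or 6.98 CPM, and was called higher in B. Among 11 other G1 and E2F genes, 6 were detected and all 11 tested. With gene totals 1 (9.09%) was called higher in A and 7 (63.6%) higher in B, beside 10.8% and 33.4% of all tested genes. With TMM the counts were 2 (18.2%) and 5 (45.5%), beside 16.4% and 22.3% of all tested genes. Mycn, a MYC-family factor, had 94.9 CPM in A and 30.3 CPM in B, Myc 11.1 CPM in A and 30.6 CPM in B, and Tfdp1, the E2F partner, 57.2 CPM in A and 36.5 CPM in B.

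A further list held cyclins and kinases known mainly from transcription or from neurons. It includes Cdk7 and Ccnh, which also activate the cell cycle kinases, and Ccng1 and Ccng2, which are linked to arrest. Of its 21 genes 20 were detected and 5 stood above 100 CPM in both, with a median CPM per kb of 13.9 in A and 18.4 in B, against 1.39 in A and 1.25 in B over the 39 members. Cdk14, a membrane-linked kinase, stood at 919 CPM in A and 1503 CPM in B, or 164 and 268 CPM per kb, while Cdk1 per kb was 0.141 in A and 0.0652 in B. Cdk16 stood at 170.03 CPM in A and 252 CPM in B, and the cyclin gene Ccni at 166 CPM in A and 274 CPM in B. Of the 21 tested 2 (9.52%) were called higher in A and 4 (19.0%) higher in B, beside 10.8% and 33.4% of all tested genes. With TMM the counts were 2 (9.52%) and 1 (4.76%), beside 16.4% and 22.3% of all tested genes. Among those called with gene totals were the cyclin T genes Ccnt1, at 3.28 CPM in A and 19.9 CPM in B, and Ccnt2, at 11.2 CPM in A and 29.6 CPM in B, and the cyclin L gene Ccnl1, at 119.5 CPM in A and 47.001 CPM in B.

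Markers of other retinal cells were also read. Of 10 microglia markers 7 were detected, together 535 CPM in A and 439 CPM in B. Of 10 endothelial and mural markers 6 were detected, together 415 CPM in A and 125 CPM in B, mostly the pericyte gene Rgs5 (342 CPM in A and 82.4 in B). Of these 10, 9 were tested. Called higher in A were 3, the mural genes Rgs5, Pdgfrb and Kcnj8, beside 10.8% of all tested genes. Called higher in B were 4, the endothelial genes Cdh5, Tek, Flt1 and Pecam1, beside 33.4% of all tested genes. Not called were the endothelial gene Kdr, at 4.67 CPM in A and 4.73 CPM in B, and the mural gene Acta2, at 2.78 CPM in A and 1.67 CPM in B. Cldn5 had 0 CPM in A and 0.0728 CPM in B. Of 10 retinal progenitor markers 1 was detected. All 10 together had 12.001 CPM in A and 15.4 CPM in B, with Olig2 at 0 counts in both and Fgf15, Hes5 and Lhx2 at 0 in A. Of 8 Müller glia markers 6 were detected (542 CPM in A and 477 CPM in B in all), with Rlbp1 at 0 in A and Aqp4 at 0 in B. Of 6 astrocyte markers 1 was detected (46.1 CPM in A and 30.6 CPM in B in all), nearly all of it Aldoc (45.2 CPM in A and 28.1 CPM in B). Gfap, Pax2 and Pdgfra had 0 counts in A, and Gfap, with 15 counts in B, was called higher in B. Whether such cells gave reads of the cell cycle genes was not tested.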

How the data were processed

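RNA of J-RGCs was sequenced as single-end reads from 2 libraries, A and B, which form 1 group. The authors deposited whole-number counts of reads per gene symbol. The submitters' processing notes name the mm9 build, HTSeq 0.6.1, TopHat2 2.0.10 and Trimmomatic 0.32. Settings, annotation and strand: not given in the sources used here. Of the aligned reads listed, the share in genes was 26.8% (A) and 30.9% (B), and summary lines stayed out of all totals. Reads at several places were 18.5% in A and 20.8% in B, so genes with near-identical copies are uncertain.

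Counts were scaled to CPM, and log2 values used a pseudocount of 0.5 CPM. Levels per kb used summed exon lengths of GENCODE M21 (another build, used for lengths and overlaps only), which had a value for all 39 members. With 1 group edgeR's quasi-likelihood test had no contrast. Libraries were compared gene by gene with a binomial test (exact, two-sided, p as double the smaller tail) over genes with at least 10 counts, with Benjamini-Hochberg adjustment. Called genes had an adjusted p under 0.05 and differed 2-fold or more. Ratios of members used a 95% interval from counting error and the trended dispersion of edgeR 4.0.16 (R 4.3.3), with TMM factors. The binomial test was tested on simulated data. Exact intervals and floors cover counting error only, and p-values measure only the spread of reads between these libraries. Python 3.11.15, numpy 2.4.6, pandas 2.3.3, scipy 1.17.1 and matplotlib 3.10.9 did the rest. The members, lists, pairs and tests were chosen with earlier results of these data known. All members are named. Of each further list, the 3 highest genes are named. So are the 3 called genes with the largest change at a mean CPM of at least 10. Genes at 0 in both libraries, Cdkn1c, Cdkn2d, Cdk1's comparison and marker genes were named after their values were seen. Alternatives were other scalings (DESeq2 1.42.0 among them), pseudocounts, filters, length correction and 1 library left out.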

Additional observations from a re-analysis of the deposited data

How the results depend on the processing

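The difference of inhibitors from mitotic genes (2.30 on the log2 scale) ranged from 2.09 to 2.52 with 1 library left out. It was 1.56 per kb, 0.55 without Rb1 and 0.089 without the 16 members whose exons overlap another gene or that have a named pseudogene, a setting chosen after seeing the data that leaves Cdkn1b and Cdkn2c as inhibitors. From S-phase genes it was 2.44, but 1.90 with means, 0.69 without Rb1 and -0.15 without those members. S-phase minus mitotic genes (-0.14) was -0.43 per kb, 0.21 with means and 0.24 without those members. Detected members numbered 27 of 39, but 13 of 39 at a CPM of at least 5. With the 16 members left out that have an exon overlap or a named pseudogene, 13 of the fewer remaining members were detected. Members higher in A numbered 8, but 13 with TMM and 13 with DESeq2's size factors, and those higher in B numbered 12, but 8 with either. Calls over all 14107 tested genes moved the same way. Higher in A were 1529, but 2318 with TMM and 2386 with DESeq2's size factors. Higher in B were 4716, but 3141 with TMM and 3070 with DESeq2's size factors. With 1 library left out the log2 ratio of Cdkn1b to Ccnd1 ranged from -2.17 to 0.16, that of Ccnd1 to Ccnd2 from -0.20 to 3.77 and that of Ccne1 to Ccne2 from -1.56 to 0.42. The cause of these changes was not tested. The biological coefficient of variation was 0.490 to 0.683 over its settings. Depth limits Cdk1, Cdk2, Cdc6 and Cdc20 most, each under 10 counts in all. No paired analysis was possible because there is 1 group.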
